A study of Mus musculus with 6 samples.

Results

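The 10 genes described here encode inhibitors that cells make in response to the ERK pathway and that act back on it: the phosphatases Dusp4, Dusp5 and Dusp6, the Sprouty proteins Spry1, Spry2 and Spry4, the Sprouty-related proteins Spred1, Spred2 and Spred3, and the receptor inhibitor Errfi1. They were chosen by name for this function, with earlier results of these data known. All 10 were found among the 24061 gene identifiers of the count table. Their messenger RNA was measured by RNA sequencing of lung tissue in 2 groups of 3 libraries. The CCSP/TGFalpha mice carried both transgene labels and the control mice CCSP alone (CCSP/-), and all were on doxycycline for 3 weeks, so the controls share the CCSP construct and the drug. CCSP stands for club cell secretory protein, a product of airway epithelium whose promoter is widely used to drive transgenes there, and TGFalpha is a ligand of the EGF receptor. The age, sex and strain of the mice and the species of the TGFalpha sequence are not given in the sources used here. The labels do not say whether replicates are separate animals, so the p-values refer to the spread among these libraries, which may be technical.

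In the ERK pathway a ligand-bound receptor tyrosine kinase switches on Ras, which activates Raf, the MEK kinases and then the ERK kinases. ERK drives transcription of its own inhibitors. Dual-specificity phosphatases remove the activating phosphates from ERK, Sprouty and Spred proteins hold back signalling between the receptor and Raf, and Errfi1 binds the kinase domain of the EGF receptor itself. In the developing mouse lung, Sprouty genes restrain the growth factor signals that shape airway branching.

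The feedback inhibitors split into a set that rose in CCSP/TGFalpha lungs and a set that did not pass the test. Dusp4, Dusp6, Spry4, Spred1 and Spred3 rose, 5 of 10, with log2 fold changes between 0.96 and 2.16. Of all 16089 genes tested, 5.03% rose. The others were Dusp5, Spry1, Spry2, Spred2 and Errfi1, with log2 fold changes between -0.44 and 0.22. None of the 10 fell by edgeR, where 3.29% of all genes did; 1 (Errfi1) was lower at an unadjusted p under 0.05, and DESeq2 and limma-voom likewise called none down. The test was edgeR's quasi-likelihood test with Benjamini-Hochberg adjustment over all genes tested, and "rose" or "fell" means an adjusted p under 0.05. The median log2 fold change was 0.59 over the 10 and 0.01 over all genes. In CPM (counts divided by each library's TMM-scaled total, the unit of level used throughout) the 3 CCSP/TGFalpha libraries lay above the 3 controls for 5 of the 10, the same 5, against 17.7% of all genes, and below them for Errfi1, against 15.5% of all genes. All 10 passed the filter on low counts. In bulk tissue, fewer cells of a type and less RNA per cell cannot be told apart.

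**Figure D1:**
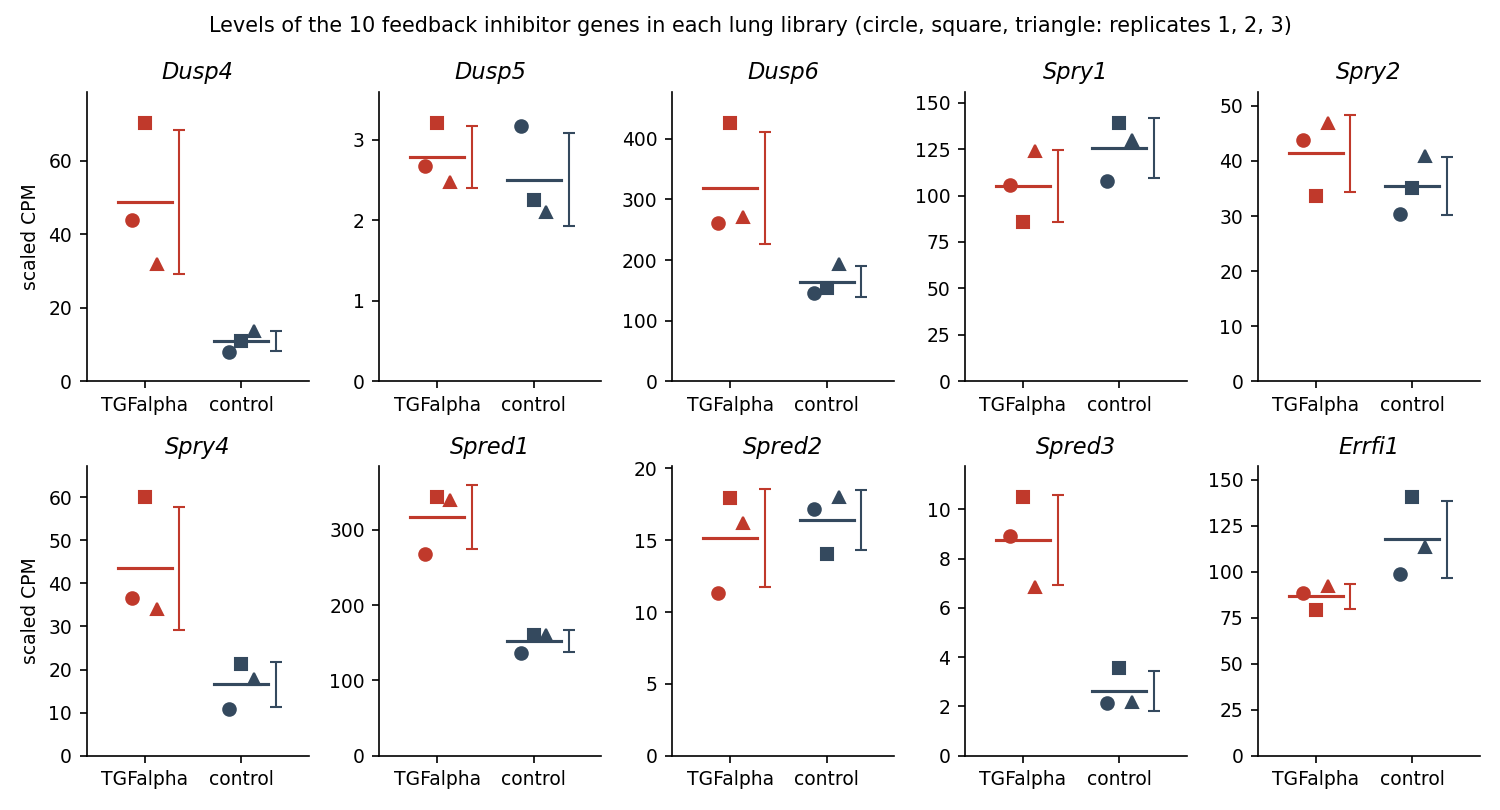
Scaled CPM of the 10 genes in each library, with CCSP/TGFalpha libraries in red at the left of each panel and control libraries in dark at the right; lines mark means, bars the SD of 3 libraries, and each panel has its own axis from 0. The red points lie wholly above the dark ones for Dusp4, Dusp6, Spry4, Spred1 and Spred3, and wholly below them for Errfi1.

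Dusp4 (Entrez gene 319520, chr8:34807610-34819894 on GRCm38.p6, plus strand) encodes an inducible phosphatase of the nucleus that acts on ERK and other MAP kinases. It was at 43.8, 70.2 and 32.0 CPM in CCSP/TGFalpha replicates 1 to 3, against 8.11, 10.96 and 13.7 CPM in control replicates 1 to 3. The lowest CCSP/TGFalpha library was thus above the highest control. The ratio of means was 4.46, and the log2 fold change of 2.16 ± 0.32 (SE; 95% interval 1.43 to 2.88; edgeR adjusted p = 0.00838) was the highest of the 10, above those of 98.5% of the genes tested. The call was lost without control replicate 2 (edgeR adjusted p = 0.0545, with a log2 fold change of 2.16).

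Dusp6 (gene 67603, chr10:99263231-99267489, plus strand) encodes the cytoplasmic phosphatase specific for ERK and was the most abundant of the 3 phosphatase members. Its CPM were 261, 426 and 270.3 in CCSP/TGFalpha replicates 1 to 3 and 146, 153 and 193 in control replicates 1 to 3. The groups did not overlap, and CCSP/TGFalpha replicate 2 stood well above the other two of its group. The log2 fold change was 0.96 ± 0.23 (95% interval 0.44 to 1.48; edgeR adjusted p = 0.0412). Leaving out any of the 6 libraries kept it positive, at 0.70 to 1.09, but it then passed in no fit (edgeR adjusted p between 0.0543 and 0.145).

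Dusp5 (gene 240672, chr19:53529145-53541809, plus strand) encodes a nuclear phosphatase that, like Dusp6, is specific for ERK. It was rare in both groups, at 2.68, 3.21 and 2.47 CPM in CCSP/TGFalpha libraries and 3.17, 2.25 and 2.10 CPM in controls, from 46 to 79 counts per library. The groups overlapped, and the 95% interval of its log2 fold change of 0.15 ran from -0.61 to 0.91 (edgeR adjusted p = 0.801). Within libraries, the log2 ratio of Dusp4 to Dusp5 averaged 4.06 ± 0.38 in CCSP/TGFalpha lungs and 2.12 ± 0.69 in controls (SD, n = 3 each; exact two-sided permutation p = 0.10, the smallest that 3 against 3 allows). An annotated gene on the other strand overlaps exons of Dusp5, and the strand setting of the counting was not given in the sources used here.

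The windows before the start sites of Dusp6 and Dusp5 are shown because the genes have the same substrate and only Dusp6 passed the test. The 95% intervals of their log2 fold changes overlap, at 0.44 to 1.48 for Dusp6 and -0.61 to 0.91 for Dusp5. The calls alone therefore do not show that the 2 genes differ in their change. Windows came from RefSeq on GRCm38.p6, which held 8 of the 10 members, Dusp4 and Spry4 being the others. Each was searched on both strands over the 250 bases before the start. The strings were the ETS string CCGGAA, the AP-1 site TGANTCA, the cyclic AMP element TGACGTCA and the Capicua sites TGAATGAA and TGAATGGA. The CArG box of serum response factor was searched too. Shorter forms of these sites, such as the GGAA within the ETS string, were not searched. These factors are known to act on ERK-responsive genes, Capicua as a repressor that ERK relieves. Capitals mark matches.
Dusp6, chr10:99262981-99263230, plus strand: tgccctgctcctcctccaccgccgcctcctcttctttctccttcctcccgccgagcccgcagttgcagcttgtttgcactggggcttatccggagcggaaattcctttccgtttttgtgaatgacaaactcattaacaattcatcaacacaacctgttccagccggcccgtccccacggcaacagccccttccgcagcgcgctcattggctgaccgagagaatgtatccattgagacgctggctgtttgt
Dusp5, chr19:53528895-53529108, plus strand: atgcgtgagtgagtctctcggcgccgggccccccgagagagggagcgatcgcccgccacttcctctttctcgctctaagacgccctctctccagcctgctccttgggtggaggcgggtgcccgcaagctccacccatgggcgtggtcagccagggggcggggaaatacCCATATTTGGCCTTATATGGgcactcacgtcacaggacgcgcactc
The Dusp6 window held none of these letter strings. The Dusp5 window held a pair of adjoining CArG boxes, CCATATTTGG and CCTTATATGG, from 82 to 63 bases before the start, where 1.47% of all 32851 windows held at least 1. The Dusp5 sequence is printed as far as the base before its first annotated exon.

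The calls among the other phosphatases of the family were in the opposite direction. Of 8 other MAP kinase phosphatase genes tested, 3 fell and none rose by edgeR, against 3.29% and 5.03% of all genes. Of the 8, 7 had a negative log2 fold change, with a median of -0.67 against 0.01 over all genes. At an unadjusted p under 0.05, 4 were lower and none higher; DESeq2 called 3 down and none up, and limma-voom 2 and none. Dusp1, a stress-inducible nuclear phosphatase that acts on p38 and JNK as well as ERK, was at 140.2, 100.5 and 177 CPM in CCSP/TGFalpha libraries and 292, 518 and 440 CPM in controls (log2 fold change -1.58 ± 0.27, edgeR adjusted p = 0.0158). Dusp1 no longer passed when CCSP/TGFalpha replicate 1, control replicate 2 or control replicate 3 was left out (edgeR adjusted p = 0.0638, 0.0682 and 0.0777).

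Dusp8, which encodes a phosphatase directed to JNK and p38, fell to 7.69, 6.50 and 9.18 CPM in CCSP/TGFalpha libraries, against 21.7, 33.8 and 17.5 CPM in controls (log2 fold change -1.64 ± 0.27, edgeR adjusted p = 0.0133). Dusp10, of the same preference, was at 10.7, 12.8 and 9.89 CPM in CCSP/TGFalpha libraries and 16.1, 22.7 and 18.9 CPM in controls (log2 fold change -0.79 ± 0.20, edgeR adjusted p = 0.0462). For all 3 the groups did not overlap. The CCSP/TGFalpha libraries lay below the controls for 5 of the 8 genes and above them for none, against 15.5% and 17.7% of all genes. The Dusp8 call was lost without CCSP/TGFalpha replicate 1 (edgeR adjusted p = 0.0586), and the Dusp10 call in 5 of the 6 fits with 1 library left out (up to 0.164) and with limma-voom (0.0514).

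The order of the phosphatases by level per length differed between the groups. In CPM per kilobase of exon, Dusp6 was at 83.2, 136 and 86.3 in CCSP/TGFalpha libraries, where Dusp1 was at 42.4, 30.3 and 53.4. In controls Dusp6 was at 46.5, 49.0 and 61.8 and Dusp1 at 88.3, 157 and 133. Dusp6 was therefore the higher of the pair in each CCSP/TGFalpha library and the lower in each control.

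**Figure D2:**
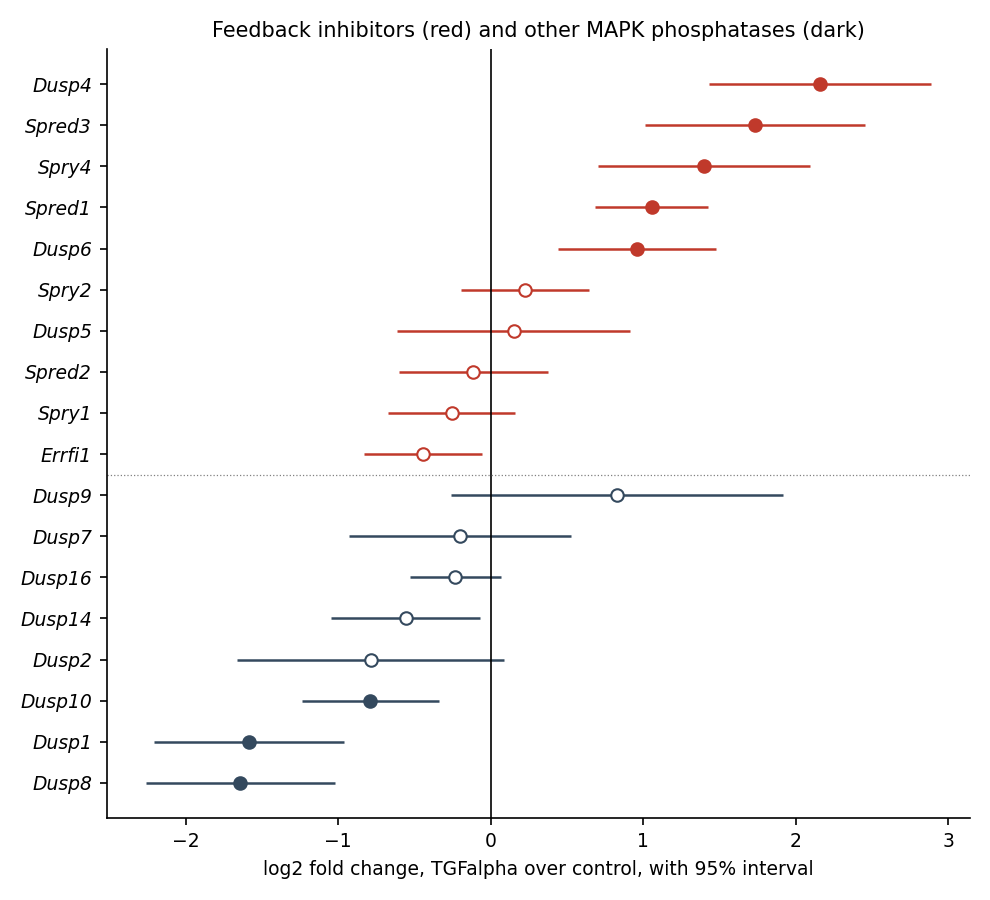
Log2 fold change of CCSP/TGFalpha over control with its 95% interval from edgeR, for the 10 feedback inhibitors in red above and the 8 other MAP kinase phosphatase genes in dark below; filled points have an adjusted p under 0.05. Of the filled points, the 5 red ones lie between 0.96 and 2.16 and the 3 dark ones between -1.64 and -0.79.

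Sprouty proteins are membrane-associated adaptors that are phosphorylated after receptor activation and then limit Ras and Raf. Spry4 (gene 24066, chr18:38586247-38601347, minus strand) was at 36.5, 60.0 and 34.1 CPM in CCSP/TGFalpha libraries and 10.8, 21.2 and 17.7 CPM in controls. The groups did not overlap, and both held a spread of about the same relative size, with an SD of 32.9% of the mean in CCSP/TGFalpha lungs and 32.1% in controls. Its log2 fold change was 1.40 ± 0.30 (95% interval 0.70 to 2.09; edgeR adjusted p = 0.0329). With 1 library left out the call stood only without CCSP/TGFalpha replicate 3 (edgeR adjusted p = 0.0403), and the other fits gave values up to 0.127, with log2 fold changes between 1.10 and 1.62 over all 6.

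Spry1 (gene 24063, chr3:37639947-37644599, plus strand), at 106, 85.6 and 124 CPM in CCSP/TGFalpha libraries and 108, 139 and 129.9 CPM in controls, had overlapping groups. Its log2 fold change was -0.26, with a 95% interval from -0.67 to 0.16 (edgeR adjusted p = 0.401). Spry2 (gene 24064, chr14:105891947-105896819, minus strand) was at 43.8, 33.6 and 46.9 CPM in CCSP/TGFalpha libraries and 30.4, 35.1 and 40.9 CPM in controls, again overlapping. Its log2 fold change was 0.22 (95% interval -0.19 to 0.64; edgeR adjusted p = 0.463). Both intervals leave out a rise as large as the fitted value of Spry4. The log2 ratio of Spry1 to Spry4 within a library averaged 1.303 ± 0.70 in CCSP/TGFalpha lungs and 2.97 ± 0.32 in controls (SD, n = 3 each; exact two-sided permutation p = 0.10). An annotated gene on the other strand overlaps exons of Spry1.

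Spred proteins bind neurofibromin, a protein that switches Ras off, and bring it to the membrane. Spred1 (gene 114715, chr2:117121071-117182279, plus strand) was the most abundant of the 3 and the steadiest of the genes that rose. Its CPM were 268, 343 and 339.7 in CCSP/TGFalpha libraries and 136, 160.2 and 161 in controls, with an SD of 13.4% of the mean in CCSP/TGFalpha lungs and 9.25% in controls. The groups did not overlap, and the log2 fold change was 1.06 ± 0.16 (95% interval 0.69 to 1.43; edgeR adjusted p = 0.00972). It missed the threshold when control replicate 2 or 3 was left out (edgeR adjusted p = 0.0508 and 0.0585).

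Spred3 (gene 101809, chr7:29157783-29170070, minus strand), which lacks a working Kit-binding domain present in its relatives, was the rarest Spred gene in controls. It was at 8.92, 10.5 and 6.83 CPM in CCSP/TGFalpha libraries, from 163 to 255 counts each, and 2.13, 3.58 and 2.19 CPM in controls, from 48 to 78 counts each. The lowest CCSP/TGFalpha library lay above the highest control, and the log2 fold change was 1.73 ± 0.31 (95% interval 1.01 to 2.45; edgeR adjusted p = 0.0189). It missed the threshold when CCSP/TGFalpha replicate 1, CCSP/TGFalpha replicate 2 or control replicate 3 was left out (edgeR adjusted p = 0.0581, 0.0580 and 0.0975). The Spred3 exons overlap those of Ggn on the other strand, and Ggn itself was between 0.164 and 0.461 CPM in CCSP/TGFalpha libraries and between 0.0913 and 0.321 CPM in controls.

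Spred2 (gene 114716, chr11:19924442-20024026, plus strand) was at 11.3, 18.0 and 16.2 CPM in CCSP/TGFalpha libraries and 17.1, 14.1 and 18.0 CPM in controls, with overlapping groups. Its log2 fold change was -0.11 (95% interval -0.60 to 0.37; edgeR adjusted p = 0.764), and turned to 0.059 without CCSP/TGFalpha replicate 1. The log2 ratio of Spred1 to Spred2 within a library was 4.40 ± 0.15 in CCSP/TGFalpha lungs and 3.22 ± 0.26 in controls (SD, n = 3 each; exact two-sided permutation p = 0.10). All 9 pairs of genes within the Dusp, Spry and Spred families were compared in this way. For 8 of them the ratios of the groups did not overlap, the other being Spred1 to Spred3, and the adjusted exact p was 0.113 for those 8. Pairs within a family share genes, so these ratios are not separate results and partly restate the fold changes above. How often ratios of other gene pairs fail to overlap was not computed.

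The windows of the 2 Spred genes that rose are shown for comparison with those of the phosphatases.
Spred1, chr2:117120821-117121070, plus strand: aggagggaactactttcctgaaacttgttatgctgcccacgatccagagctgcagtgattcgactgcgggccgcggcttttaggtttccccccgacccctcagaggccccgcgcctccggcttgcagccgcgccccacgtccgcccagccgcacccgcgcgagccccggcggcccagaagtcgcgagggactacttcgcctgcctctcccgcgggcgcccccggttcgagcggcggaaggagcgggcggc
Spred3, chr7:29168648-29168897, minus strand: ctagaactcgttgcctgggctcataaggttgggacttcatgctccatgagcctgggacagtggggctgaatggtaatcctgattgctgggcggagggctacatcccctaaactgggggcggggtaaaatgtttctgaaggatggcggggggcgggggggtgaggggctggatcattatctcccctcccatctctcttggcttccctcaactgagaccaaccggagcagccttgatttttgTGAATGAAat
The Spred3 window lies before a RefSeq start inside the gene's extent, not at its outer end. It held the Capicua site TGAATGAA from 10 to 3 bases before the start, and 2.07% of all windows held either Capicua site. The Spred1 window held none of the strings searched. Among the other members with a window, the second of 2 windows of Errfi1, also before a start inside the gene, held the cyclic AMP element TGACGTCA, which 1.55% of all windows held. The full ETS string CCGGAA and the AP-1 site TGANTCA were in no window of the 8 members that had one, against 12.0% and 6.75% of all windows. So few windows cannot show a lack of these strings relative to such shares. Shorter ETS forms were not counted.

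Errfi1 (gene 74155, chr4:150853796-150868889, plus strand), whose product blocks the EGF receptor kinase, was the member with the lowest fold change. It was at 88.2, 79.1 and 92.2 CPM in CCSP/TGFalpha libraries and 98.9, 140.4 and 113 CPM in controls. Every CCSP/TGFalpha library was below every control, though the gap between the nearest libraries was small. The log2 fold change of -0.44 ± 0.17 did not pass (95% interval -0.83 to -0.06; edgeR adjusted p = 0.138).

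The levels of each family's members were summed per kilobase of exon. The Dusp members summed to 121 ± 36.5 CPM per kilobase in CCSP/TGFalpha lungs and 57.4 ± 8.97 in controls (SD, n = 3 each; exact two-sided permutation p = 0.10). The Spred members summed to 51.4 ± 7.001 in CCSP/TGFalpha lungs and 26.4 ± 2.04 in controls (exact two-sided permutation p = 0.10). For both of these sets of members every CCSP/TGFalpha library was above every control. The Dusp sum is not that of the whole family, as it leaves out the 8 other MAP kinase phosphatase genes. Among these, Dusp1 was at 42.4, 30.3 and 53.4 CPM per kilobase in CCSP/TGFalpha libraries and 88.3, 157 and 133 in controls. The Spry members summed to 65.2 ± 7.11 CPM per kilobase in CCSP/TGFalpha lungs and 63.7 ± 8.49 in controls (exact two-sided permutation p = 0.70), and the direction turned without CCSP/TGFalpha replicate 3 or control replicate 1 (log2 ratio -0.048 and -0.073). An exact test of 3 against 3 cannot go below 0.10, so none of these sums could pass.

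**Figure D3:**
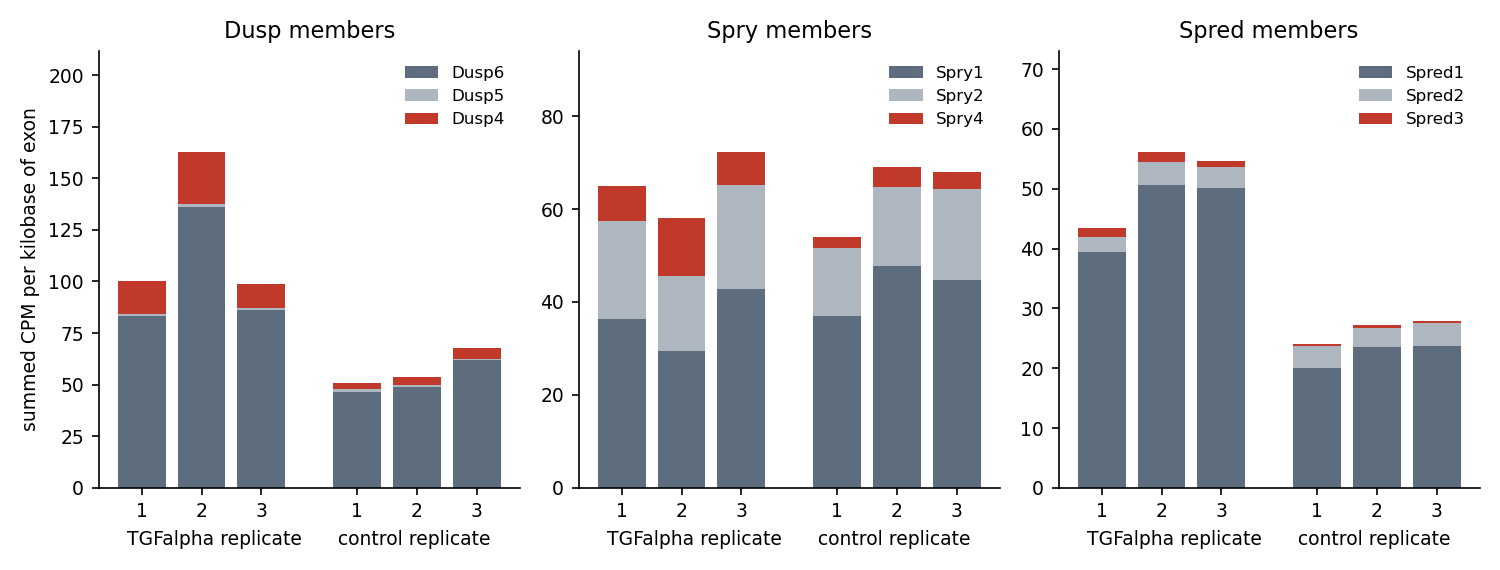
Stacked bars of CPM per kilobase of exon for the members of each family in each library, CCSP/TGFalpha replicates at the left and control replicates at the right of each panel, with a separate axis from 0 for each family. Dusp6 fills most of the Dusp bars and Spred1 most of the Spred bars, and Spry4 is a larger part of the Spry bars in CCSP/TGFalpha libraries.

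Within the families the balance between members differed. Spry4 made up 11.8, 21.7 and 9.91% of the summed Spry level in CCSP/TGFalpha libraries, against 4.198, 6.44 and 5.48% in controls. Spry1 made up 55.9, 50.7 and 59.1% in CCSP/TGFalpha libraries, against 68.8, 69.2 and 65.7% in controls. Dusp4 was 15.9, 15.7 and 11.8% of the summed Dusp level in CCSP/TGFalpha libraries, against 5.84, 7.42 and 7.40% in controls, and Dusp6 supplied most of the rest. Spred1 was 90.9 ± 0.76% of the Spred level in CCSP/TGFalpha lungs and 84.9 ± 1.75% in controls (SD, n = 3 each), and Spred2 was 6.33 ± 0.63% in CCSP/TGFalpha lungs and 13.5 ± 2.13% in controls. In each of these 5 genes named with shares the shares of the groups did not overlap. Those of Dusp5 and Dusp6 did not overlap either, while those of Spry2 and Spred3 did. Shares within a family add up to a fixed whole, so they are not separate results. How often such shares fail to overlap for other genes was not computed.

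Per kilobase, the mean levels ran in CCSP/TGFalpha lungs from Dusp6 (102 CPM per kilobase) through Spred1 (46.7), Spry1 (36.2), Errfi1 (24.2), Spry2 (19.9), Dusp4 (17.8), Spry4 (9.16), Spred2 (3.28) and Spred3 (1.41) to Dusp5 (1.13). Neighbours in that order overlapped between libraries except Dusp6 and Spred1, Spry1 and Errfi1, Spry4 and Spred2, and Spred2 and Spred3. In controls the order was Dusp6 (52.4), Spry1 (43.2), Errfi1 (32.8), Spred1 (22.5), Spry2 (17.0), Dusp4 (3.99), Spred2 (3.55), Spry4 (3.48), Dusp5 (1.01) and Spred3 (0.423). The control neighbours that overlapped were Dusp6 and Spry1, Spry1 and Errfi1, Dusp4 and Spred2, and Spred2 and Spry4. Spred1 thus stood next after Dusp6 in CCSP/TGFalpha lungs, and below Spry1 and Errfi1 in controls.

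Libraries of a group differed in the members' levels. CCSP/TGFalpha replicate 2 was the highest of its group for 7 members, which included all 5 that rose, and the lowest for the other 3, Spry1, Spry2 and Errfi1. Control replicate 1 was the lowest control for 8 of 10, the others being Dusp5 and Spred2. CCSP/TGFalpha replicate 2 was also the highest library in the summed level of 7 fibroblast marker genes, at 8531 CPM, where the other 2 of its group had 6317 and 5277 and the controls 1432 to 1625. Of those 7 markers 5 rose and none was at 0. Macrophage markers summed to 15000 CPM in CCSP/TGFalpha replicate 2, where the other 2 of its group had 2198 and 2066 and the controls 5216 to 17050. T cell and B cell markers were also highest of the group there, at 51.3 and 84.1 CPM, with controls at 39.2 to 48.9 and 63.6 to 69.4 CPM, and no marker of these 3 lists was at 0. The part of fibroblast and immune cell content in the levels of the feedback inhibitors was not tested.

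Genes with the most similar profile over the 6 libraries were found for each member that rose, as the 3 with the smallest root mean square difference in centred log2 CPM. For Dusp4 these were Tnfrsf11b, Pcdh7 and Col5a1, with differences of 0.21, 0.21 and 0.22 on a profile that spanned 3.10. For Dusp6 they were Adamts3, Ccdc84 and Pxylp1 (0.08, 0.11 and 0.12, on a span of 1.55). For Spry4 they were Cntf, Kcnd1 and Hic1 (0.11 to 0.15), for Spred1 Sema5a, Col8a2 and Lpar4 (0.11 to 0.12), and for Spred3 Susd1, Pmepa1 and Hic1 (0.14 to 0.17). Hic1, a transcriptional repressor gene, was at 16.7, 21.7 and 14.5 CPM in CCSP/TGFalpha libraries and 4.18, 7.61 and 6.03 CPM in controls, and was near both Spry4 and Spred3. Cntf and Kcnd1 were at or below 2.63 CPM in every library and did not pass (edgeR adjusted p = 0.126 and 0.147). Adamts3 and Pxylp1 did not pass either (edgeR adjusted p = 0.0825 and 0.0562), while the other genes listed here did. All were picked as the closest of many genes over only 6 libraries, and shared control was not tested.

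In the rest of the pathway, 3 of 57 tested genes rose and 6 fell over 4 lists, where 5.03% of all genes rose and 3.29% fell. Of the 18 genes of the ERK cascade core, 2 rose and none fell by edgeR, with a median log2 fold change of -0.03. At an unadjusted p under 0.05, 3 were higher and 1 lower, and DESeq2 and limma-voom each called 2 up and none down. The genes that rose were Egfr, the receptor of TGFalpha, at 41.7, 52.6 and 54.5 CPM in CCSP/TGFalpha libraries and 28.7, 25.9 and 34.7 CPM in controls (edgeR adjusted p = 0.0414), and Shc1, an adaptor of activated receptors, at 89.6, 112 and 94.1 CPM in CCSP/TGFalpha libraries and 60.4, 66.4 and 57.3 CPM in controls (edgeR adjusted p = 0.0339). Neither passed in any of the 6 fits with 1 library left out (adjusted p up to 0.142 and 0.153). Tgfa, the gene of the ligand, was at 26.6, 25.9 and 29.9 CPM in CCSP/TGFalpha libraries and 26.4, 22.6 and 28.4 CPM in controls, and its row would hold transgene reads only as far as the transgene matches the mouse sequence, so it does not check the labels.

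Of 11 tested genes for other inhibitors of receptor tyrosine kinase signalling, none rose or fell by edgeR, DESeq2 or limma-voom, with a median of 0.03; by edgeR 2 were higher and 1 lower at an unadjusted p under 0.05. Socs5, a suppressor of cytokine and EGF receptor signalling, had the smallest adjusted p there (edgeR adjusted p = 0.0986, log2 fold change 0.44). Spry3, listed with them, had no counts in any library.

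Among 20 transcripts known to rise with ERK activity, 1 rose and 3 fell, against 5.03% and 3.29% of all genes. The median log2 fold change was 0.14, with 12 of the 20 positive and 8 negative. At an unadjusted p under 0.05, 3 were higher and 3 lower by edgeR. DESeq2 and limma-voom each called 1 up and 3 down. Etv4, a transcription factor gene of the ETS family, was at 14.2, 14.9 and 6.16 CPM in CCSP/TGFalpha libraries and 0.442, 0.183 and 0.0457 CPM in controls (log2 fold change 5.65 ± 0.65, edgeR adjusted p = 0.00314). The controls held 11, 4 and 1 counts of it. Its call stood in each fit with 1 library left out. The genes that fell encode subunits of the AP-1 factor: Fosb (log2 fold change -2.02 ± 0.35), Fos (-0.75 ± 0.13) and Jun (-0.71 ± 0.17), with edgeR adjusted p of 0.0158, 0.0179 and 0.0400. Jun was named after its value was seen. The call of Fosb was lost in 2 of the 6 fits with 1 library left out, that of Fos in 3 and that of Jun in 5 (adjusted p up to 0.0541, 0.0859 and 0.159). The other Fos and Jun genes of the list, Fosl1 and Junb, did not pass, with log2 fold changes of 0.62 and 0.20. Neither did Egr1, Egr2, Egr3 and Ier2 (0.68, 0.74, 0.75 and 0.34), nor Ier3 (-0.21). These genes were named after their values were seen. Fos, Jun and Dusp1 are also known to rise in tissue handling, and handling was not measured.

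**Figure D4:**
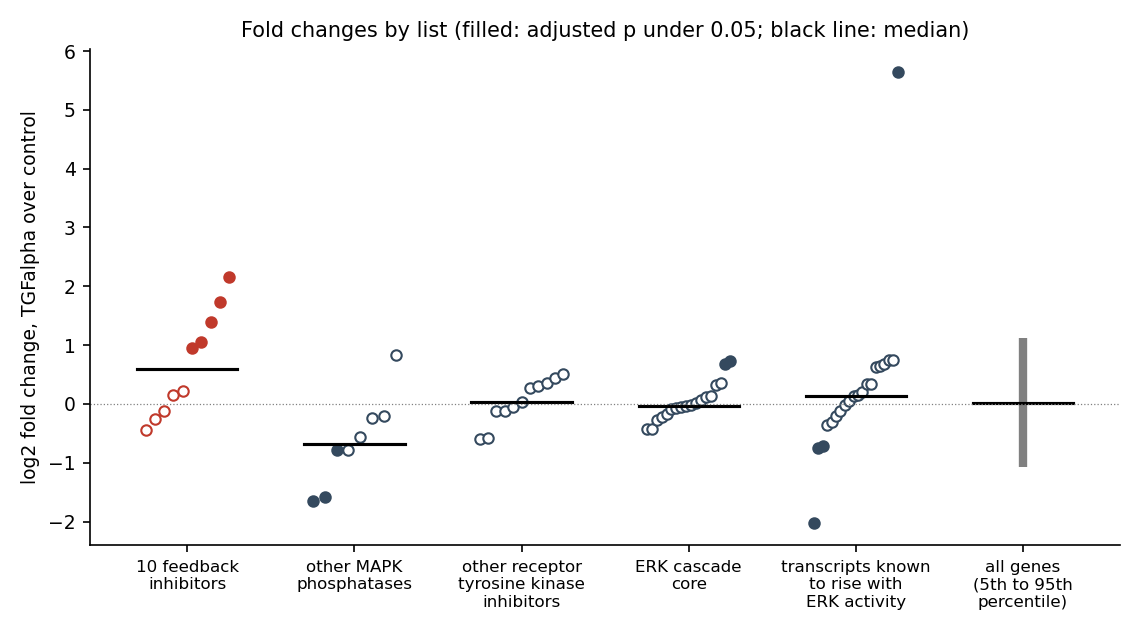
Log2 fold changes of CCSP/TGFalpha over control for the tested genes of the feedback inhibitors and of 4 other ERK pathway lists, with filled points for an adjusted p under 0.05, black lines for medians, and a grey bar from the 5th to the 95th percentile of all genes (-1.08 to 1.11). The feedback inhibitors have a median of 0.59, and the other MAP kinase phosphatases one of -0.67.

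Library totals lay between 21479006 and 24914322 counts. The lung identity of the samples showed in alveolar type 2 markers, which summed to between 15040 and 17110 CPM in CCSP/TGFalpha libraries and between 13100 and 17090 CPM in controls, with no marker at 0. Skeletal muscle markers stood apart in 2 libraries, at 1878 CPM in CCSP/TGFalpha replicate 1 and 1077 CPM in control replicate 1, where the other 4 had 51.8 to 67.8 CPM. Without both of these, 2 of the 10 feedback inhibitors rose, Dusp4 and Spred1 (edgeR adjusted p = 0.0357 and 0.0266). The log2 fold changes of the other 3 were 0.999 for Dusp6, 1.27 for Spry4 and 1.58 for Spred3 in that fit of 4 libraries, against 0.96, 1.40 and 1.73 with all 6 (edgeR adjusted p = 0.0875, 0.0632 and 0.0778 without them). Endothelial markers summed to 1037 to 1895 CPM in CCSP/TGFalpha libraries and 2046 to 3695 CPM in controls, with 4 of 8 falling, and red cell markers to 7271 to 12800 CPM in CCSP/TGFalpha libraries and 17370 to 39890 CPM in controls, with 4 of 5 falling; no marker of either list was at 0. Alveolar type 1 markers summed to 1360 to 2185 CPM in CCSP/TGFalpha libraries and 2339 to 3556 CPM in controls, with 2 of 7 falling and none at 0. Club cell markers summed to 5414 to 6888 CPM in CCSP/TGFalpha libraries and 9237 to 11370 CPM in controls, with 1 of 5 rising, 1 falling and none at 0. Ciliated cell markers summed to 61.8 to 104.7 CPM in CCSP/TGFalpha libraries and 153 to 179.7 CPM in controls, with 1 of 5 falling and none at 0. Mesothelium markers summed to 265 to 361 CPM in CCSP/TGFalpha libraries and 22.4 to 208 CPM in controls, with 1 of 4 rising and none at 0. Control replicate 3 was the lowest there, with control replicates 1 and 2 at 199 and 208 CPM. The part of these cell types in the levels of the feedback inhibitors was not tested.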

How the data were processed

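Total RNA from mouse lung was sequenced, per the labels' protocols. The authors deposited raw counts per gene for 6 libraries, with no normalization. The submitters' processing notes name bcl2fastq, CASAVA 1.8, TopHat and DESeq and the build mm10. How reads were counted, with which strand setting and annotation, is not given in the sources used here. Of 24061 identifiers, 23976 were named through RefSeq on GRCm38.p6, the build of mm10, and exon lengths were unions of GENCODE M21 exons.

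Groups came from the titles. The test was edgeR 4.0.16 (R 4.3.3) with TMM scaling, its filter by group and a quasi-likelihood fit on group. Benjamini-Hochberg adjustment was over 16089 genes. The code was also run on simulated counts with the same dispersion for every gene, which says nothing on the calls in these libraries. CPM use the scaled library sizes. Standard errors are the coefficient over the root of F, and 95% intervals use the fit's degrees of freedom. Alternatives used DESeq2 1.42.0 and limma-voom (limma 3.58.1), other scalings and filters, a robust fit, a replicate block and left-out libraries. Family sums and ratios were tested by exact permutation, with p adjusted over the 3 sums or the 9 ratios. Libraries of a group differed beyond sampling noise (chi-square over its degrees of freedom 48.6 or more), so none was another library sequenced again. This does not tell whether libraries came from separate animals. The members and lists were chosen with earlier results of these data known. Named were all members, Tgfa, Egfr, up to 3 called genes per list by adjusted p (with none called, the 1 with the smallest p) and the 3 nearest profiles.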

Additional observations from a re-analysis of the deposited data

How the results depend on the processing

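The 5 rises among the feedback inhibitors were called with DESeq2's size factors, library totals, DESeq2, limma-voom, every gene with a count kept, a floor of 1 CPM in 3 libraries, a robust fit and the 20 most abundant genes left out, and none of the 10 fell in any of these. They rested on the number of libraries. With 1 library left out, 1 to 4 members rose, 204 to 606 of all genes rose and 34 to 482 fell, and 1 of the other pathway genes rose in each fit and 1 to 7 fell, against 3 and 6 with all libraries. Without CCSP/TGFalpha replicate 1 and control replicate 1 together, 2 members, 1 other pathway gene and 307 of all genes rose, and 0, 2 and 166 fell. DESeq2 called 1279 genes up and 1214 down, against 810 and 530 by edgeR. Fewer samples were fitted in the left-out alternatives; for DESeq2 the cause was not tested. The log2 ratio of the summed Spry level was -0.073 to 0.11 with 1 library left out, and -0.048 without CCSP/TGFalpha replicate 3. Spred2 had log2 fold changes of -0.25 to 0.059 there and of 0.086 without both first replicates. The labels do not say that a number marks a pair, and the deviations of same-numbered libraries correlated at 0.42, -0.05 and 0.22, with only the first numbers matching best with each other on both sides. With the replicate number as a block (replicate block), 5 members rose, 802 of all genes rose and 668 fell, and Dusp10 had an adjusted p of 0.0502. Dusp5 and Spred3 had under 100 counts per control library, which limits the precision of their fold changes.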

Other observations

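The count table held 24 genes with a Dusp symbol, of which 13 were neither among the feedback inhibitors nor in the list of other MAP kinase phosphatases. These are mostly atypical dual-specificity phosphatases, which lack the MAP kinase-binding domain. Of the 13, 10 were tested and none rose or fell by edgeR or limma-voom, while 1 fell by DESeq2; by edgeR 3 were lower and none higher at an unadjusted p under 0.05. Dusp3, a small phosphatase that acts on ERK and JNK, was at 145, 126 and 174 CPM in CCSP/TGFalpha libraries and 202, 268 and 216 CPM in controls (log2 fold change -0.63, edgeR adjusted p = 0.0690). Dusp11, a phosphatase of RNA, was at 186, 228 and 257 CPM in CCSP/TGFalpha libraries and 219, 237 and 227 CPM in controls, with overlapping groups. The 2 were named after their values were seen.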
